A study of Mus musculus with 2 samples.

Results

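The CCN matricellular genes Ccn1 to Ccn5, with Ankrd1, Amotl2, Yap1, Wwtr1 and Tead1 of the YAP/TEAD axis, were examined in mouse mesenteric artery, the resistance vessel that supplies the intestine. These 10 genes of 55573 listed were picked out in the files by symbol and Ensembl identifier, with Ccn1 to Ccn5 listed under the older names Cyr61, Ctgf, Nov, Wisp1 and Wisp2. RNA-seq was performed on 1 library of control arteries in 5 mM K+ and 1 library of arteries depolarized with 60 mM K+. All tissue came from C57BL/6 wild-type mice aged 10 weeks, with tissue from 2 mice pooled in each library and 60 min given as the time for both. The comparison asks which transcripts differ when the artery is depolarized. With 1 library per condition there is no replicate check, so every interval here covers counting error only, and animals, artery segment and time in solution cannot be told apart from K+: the study's methods describe control tissue that was cut off beyond a ligature, ahead of perfusion of the rest with 60 mM K+.

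CCN proteins are secreted into the matrix, where they bind integrins and proteoglycans and tune adhesion, growth factor signaling and matrix production. Yap1 and Wwtr1 (TAZ) encode transcriptional coactivators that are held in the cytoplasm when the Hippo kinases are active. When these kinases are off they enter the nucleus and bind TEAD factors at target genes, of which Ccn1, Ccn2, Ankrd1 and Amotl2 are classic examples. In vascular smooth muscle this axis is known as a sensor of stretch and stiffness.

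Promoter sequences were on hand for 5 of the 10 genes, namely Ccn1, Ankrd1, Amotl2, Yap1 and Wwtr1. They come from RefSeq (GRCm38.p6) and were placed on mm9 by exact match, and each spans 250 bases before to 50 bases after an annotated start. Ccn2, Ccn3, Ccn4, Ccn5 and Tead1 had no entry. The hexamer GGAATG, the core of the sites that TEAD factors bind, was searched on both strands, and all 5 promoters held it, compared with 14.7% of 32851 promoters of the same length. The 5 genes were chosen as members of the axis, and a match is a description of the letters, not of binding. The upstream sequences of Ccn1 and Ankrd1 are shown whole, because they are classic target genes, and for the other 3 genes the 30 bases around the match are shown. All are printed 5′ to 3′ on the strand of the gene, with matches in capitals. In Ccn1 the first run of capitals is the TEAD hexamer read on the opposite strand and the second is the CRE core TGACG, also on the opposite strand. All other capitals mark TEAD hexamers.
Ccn1, chr3:145312950-145313199, minus strand: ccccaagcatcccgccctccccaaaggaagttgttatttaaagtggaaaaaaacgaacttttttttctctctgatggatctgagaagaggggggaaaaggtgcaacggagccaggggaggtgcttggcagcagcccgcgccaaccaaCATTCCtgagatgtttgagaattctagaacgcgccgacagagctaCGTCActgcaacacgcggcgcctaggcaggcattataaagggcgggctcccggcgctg
Ankrd1, chr19:36194335-36194584, minus strand: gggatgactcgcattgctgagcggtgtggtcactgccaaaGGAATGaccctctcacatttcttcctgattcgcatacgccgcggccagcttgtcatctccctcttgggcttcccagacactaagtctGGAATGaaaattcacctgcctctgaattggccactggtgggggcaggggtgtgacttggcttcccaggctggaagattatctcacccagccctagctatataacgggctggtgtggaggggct
Amotl2, chr9:102620057-102620086, plus strand: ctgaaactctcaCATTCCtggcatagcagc
Yap1, chr9:8004720-8004749, minus strand: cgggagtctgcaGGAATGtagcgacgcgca
Wwtr1, chr3:57379951-57379980, minus strand: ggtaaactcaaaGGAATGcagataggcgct

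In Ccn1 the hexamer lay 103 to 98 bases upstream of the start, and in Ankrd1 there were matches 210 to 205 and 123 to 118 bases upstream. In Amotl2 the match lay 65 to 60 bases upstream of the RefSeq start. That place is inside the gene as annotated in GENCODE vM1, which begins at base 102619002. The match lay 141 to 136 bases upstream in Yap1 and either 136 to 131 or 170 to 165 bases upstream in Wwtr1, which has 2 listed starts. The cAMP response element (CRE), the site of the CREB factor that the study follows, was searched as well. Its full palindrome was in 0 of these 5 promoters and in 1.79% of all promoters. Its core TGACG was in 1 of them, Ccn1, at 58 to 54 bases upstream, and in 20.8% of all promoters. The AP-1 site TGANTCA (7.81% of all promoters) and the CArG box of serum response factor (1.63%) were in 0 of the 5 windows.

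**Figure D1:**
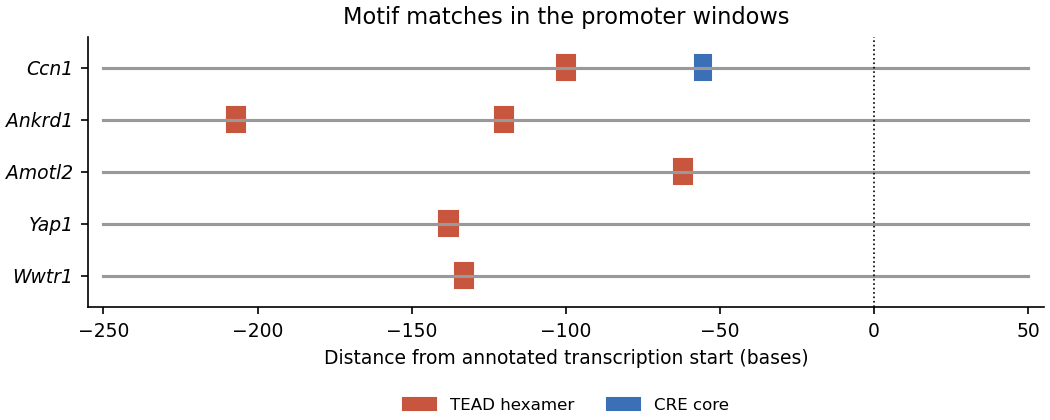
Exact motif matches in the RefSeq promoters of 5 genes, by distance in bases from the annotated transcription start (x axis, 0 is the start); red boxes are the TEAD hexamer and the blue box is the CRE core TGACG. Every promoter holds a TEAD hexamer upstream of the start, Ankrd1 holds 2, the CRE core is in Ccn1, and Wwtr1 is drawn from the start that lies 136 to 131 bases from its match.

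Sequencing depth was 10480918 reads on genes in the 5 mM K+ library and 11289598 in the 60 mM K+ library. All 10 genes were detected in both libraries, and the fewest reads over both together were the 167 of Ankrd1. Of the smooth muscle markers that define the tissue, 7 of 7 were detected, led by Acta2 with 187183 and 199779 reads. Levels of different genes were compared as deposited FPKM (fragments scaled by gene length and library total), with the 95% Poisson interval of the read count carried over. Differences between the libraries were computed as log2(fold-change) of read counts, 60 mM K+ over 5 mM K+, on library sizes adjusted by the TMM method of edgeR, which trims extreme genes. This scaling placed the median of the 14829 genes with at least 10 reads at -0.0047. Scaling by total counts lowers every log2(fold-change), including that median, by 0.21. Fixing the median change of Ppia and Hprt, the reference genes of the study's qPCR, at 0 lowers it by 0.49, because their log2(fold-change) was 0.51 for Ppia and 0.47 for Hprt.

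On the FPKM scale Ccn1, Ccn2, Ccn3 and Ccn5 were the most abundant of the 10 genes, while Ccn4 stood below all of the others but Ankrd1. Ccn1 (CYR61), which codes for an integrin-binding matrix protein made soon after growth or mechanical stimuli, had 799 FPKM (787 to 811) in 5 mM K+ and 690 FPKM (679 to 701) in 60 mM K+. By FPKM it ranked 83 among all listed genes under control conditions and 127 after depolarization. Ccn2 (CTGF), a matrix protein closely tied to fibrosis, had 565 FPKM (554 to 576) and 389 FPKM (381 to 398), at FPKM ranks 143 and 270. Ccn3 (NOV), often opposed to Ccn2 in its actions on matrix, had 302 FPKM (296 to 308) and 297 FPKM (291 to 303). Ccn5 followed with 172 FPKM (165 to 179) and 99.8 FPKM (94.8 to 105). Ccn4 (WISP1), a WNT-responsive member, was the lowest of the 5 with 23.2 FPKM (21.0 to 25.6) and 15.6 FPKM (13.9 to 17.5). The order Ccn1, Ccn2, Ccn3, Ccn5, Ccn4 was the same in both libraries, with no overlap of the counting intervals between neighbors. Shares of all reads follow total counts, which move every log2(fold-change) by -0.21 from its value with TMM scaling. On that scale the CCN family together held 0.373% of all reads in 5 mM K+ and 0.308% in 60 mM K+. Ccn6, the remaining member of the family, had 0 reads in both, which allows up to 0.266 and 0.286 TMM-scaled counts per 1000000 reads (CPM).

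Outside the CCN family, Amotl2, the gene of an angiomotin-like scaffold of cell junctions, had 82.3 FPKM (78.3 to 86.4) in 5 mM K+ and 84.3 FPKM (80.5 to 88.3) in 60 mM K+. Yap1 had 67.1 FPKM (63.7 to 70.7) and 79.0 FPKM (75.4 to 82.7). Its paralog Wwtr1 had 35.7 FPKM (34.0 to 37.4) and 36.9 FPKM (35.3 to 38.6), so that Yap1 made up 65.3% of the summed FPKM of this pair under control conditions and 68.2% after depolarization. Tead1, a DNA-binding partner of both, had 45.7 FPKM (43.1 to 48.4) and 39.3 FPKM (37.0 to 41.7). Ankrd1, a target gene that encodes an ankyrin repeat protein of muscle, was far lower, with 4.77 FPKM (3.85 to 5.84) and 3.52 FPKM (2.76 to 4.42). The order of all 10 genes was the same in both libraries. In the depolarized library the intervals of the neighbors Amotl2 and Yap1 overlapped, as did those of Tead1 and Wwtr1.

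**Figure D2:**
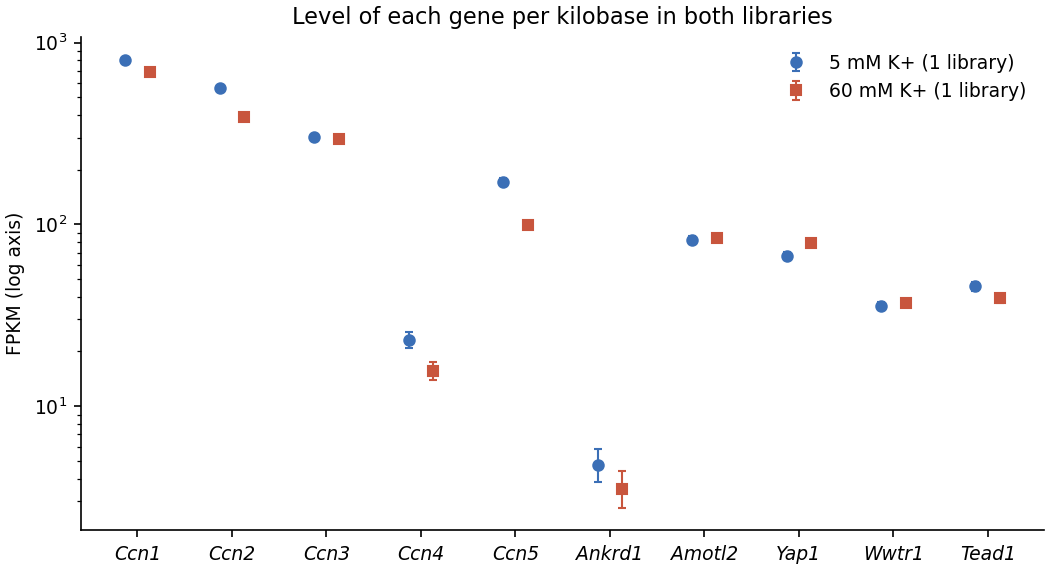
Deposited FPKM (y axis, log scale) of each of the 10 genes in the 5 mM K+ library (blue circles) and the 60 mM K+ library (red squares), 1 library each, with 95% Poisson counting intervals. Ccn1 is the highest at 799 and 690 FPKM and Ankrd1 the lowest at 4.77 and 3.52 FPKM.

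Between the libraries, 0 of the 10 genes passed the thresholds of the study, which asks for q below 0.005 with a log2(fold-change) beyond 1 in either direction. That test, DEGSeq's random-sampling test recomputed on the reads with Benjamini-Hochberg adjustment, compares these libraries and not the conditions. DEGSeq itself was not run, so calls here are those of the recomputed formula, and the study's own list of calls differs. Over all 21374 genes with reads it called 2.11% up-regulated and 1.10% down-regulated. By fold alone, 0 of 10 genes were above 1 and 0 were below -1, compared with 5.54% and 5.86% of genes with at least 10 reads. As a group, the 10 genes had a median of -0.0062 in log2(fold-change), close to the -0.0047 of all genes, and the values ran from -0.58 for Ccn5 to 0.44 for Yap1. For 7 of the 10 genes the counting interval excluded 0, and for 45.3% of all genes with at least 10 reads it did so. Depth sets this share: in genes of 500 reads or more (a cut picked with the data in view) it was 62.8%, with 41.4% above 0 and 21.4% below, and 9 of the 10 genes lay there. The interval lay above 0 for 4 genes (25.0% of all genes) and below 0 for 3 genes (20.3%) with TMM. These numbers were 1 and 5 genes with total counts and 0 and 9 genes with Ppia and Hprt. Those scalings move all genes alike, with the median of all genes at -0.21 and -0.49, and no share of all genes was computed for them.

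**Figure D3:**
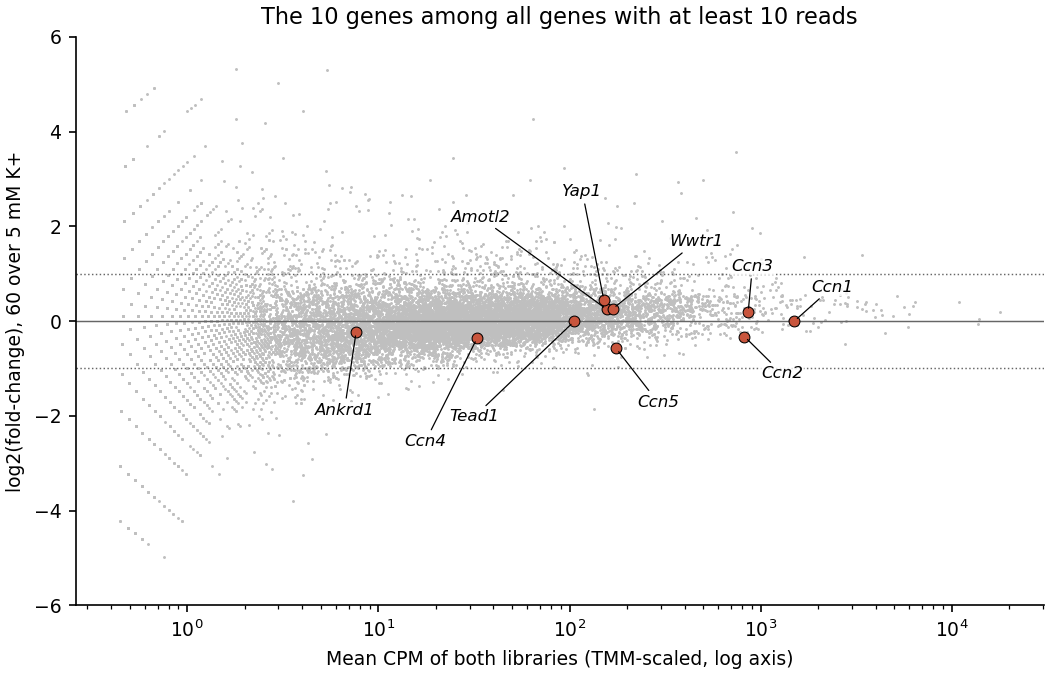
Log2(fold-change), 60 mM K+ over 5 mM K+ (y axis), against the mean TMM-scaled CPM of both libraries (x axis, log scale) for genes with at least 10 reads (grey), with the 10 genes in red. All 10 lie between the dotted lines at -1 and 1, from -0.58 for Ccn5 to 0.44 for Yap1.

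Among the CCN genes, Ccn5, Ccn4 and Ccn2 had lower normalized counts in the depolarized library, Ccn3 a higher one, and Ccn1 nearly the same. Ccn1 (chromosome 3, 145309935 to 145312949) had 16907 control and 15722 depolarized reads, or 1501 and 1497 CPM. Its log2(fold-change) of -0.0034 had the narrowest interval of the 10 genes, from -0.035 to 0.028, and was -0.21 with total counts. Ccn2 (chromosome 10, 24315248 to 24318489) had 10321 and 7667 reads, or 916 and 730.05 CPM. Its log2(fold-change) was -0.33 (-0.37 to -0.28), or 20.3% lower in 60 mM K+. An antisense gene, Gm15270, overlaps Ccn2 and had 7 and 6 reads.

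Ccn5 (chromosome 2, 163646597 to 163658882), which codes for a CCN protein that restrains smooth muscle growth, had 2366 and 1477 reads, or 210.00 and 141 CPM. With a log2(fold-change) of -0.58 (-0.67 to -0.48), or 33.0% lower in 60 mM K+, it was the lowest of the 10 and stood at percentile 13.2 of all tested genes. Ccn4 lies on chromosome 15 from 66722882 to 66754763. It had 416 and 302 reads, a log2(fold-change) of -0.36 with a wider interval of -0.58 to -0.14. Ccn3, on the same chromosome from 54577257 to 54585594, had 9074 and 9608 reads, or 805 and 915 CPM. Its log2(fold-change) was 0.18 (0.14 to 0.23) with TMM, but -0.025 with total counts and -0.31 with Ppia and Hprt. For Ccn2, Ccn4 and Ccn5 the value was below 0 with every scaling used. Ccn5 reached -1.07 with Ppia and Hprt, which placed it past the thresholds of the study in that setting alone.

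Ratios between genes of the same library do not depend on the scaling, so the 10 pairs within Ccn1 to Ccn5 were compared by their odds ratio with its exact 95% interval. In 8 of the 10 pairs the interval of the difference in log2(fold-change) excluded 0. Depth sets this count too, and no share over pairs of other genes was computed. The widest gap was between Ccn3 and Ccn5, at 0.76 (0.66 to 0.87), followed by Ccn1 over Ccn5 at 0.57 (0.48 to 0.67). Ccn1 stood 0.32 (0.27 to 0.38) above Ccn2, another classic target of the same coactivators. Ccn3 stood above Ccn1, with a difference of -0.19 (-0.24 to -0.14) when Ccn3 was subtracted from Ccn1. The intervals of the other 2 pairs included 0, with 0.033 (-0.19 to 0.26) for Ccn2 minus Ccn4 and 0.22 (-0.021 to 0.46) for Ccn4 minus Ccn5. Each of these pairs holds Ccn4, which had the fewest reads of the 5 genes, 718. Of the reads on the 5 genes, the share of Ccn2 went from 26.4% (exact interval 26.0 to 26.8) to 22.0% (21.6 to 22.5) and that of Ccn3 from 23.2% (22.8 to 23.6) to 27.6% (27.2 to 28.1).

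The 5 CCN genes were chosen by their family name. In GENCODE vM1 the longest coding transcript of each has 5 exons. The coding length was between 1044 and 1137 bases for Ccn1 to Ccn4 and 753 bases for Ccn5, which lacks the C-terminal cystine-knot domain of the others. Fibroblasts and smooth muscle both express CCN genes, and in bulk arteries fewer cells of a type and less RNA per cell cannot be told apart. Of the fibroblast markers, 7 of 7 were detected, 6 had a counting interval below 0 and 1 above it, and the median log2(fold-change) was -0.12, within a range of -0.43 to 0.21. Each fibroblast and smooth muscle marker had at least 500 reads, and of all such genes 21.4% lay below 0 and 41.4% above. The summed level of the fibroblast markers was 3345 FPKM in 5 mM K+ and 2661 FPKM in 60 mM K+. FPKM follow total counts, and with TMM their summed reads had a log2(fold-change) of -0.12. Of the smooth muscle markers, 5 were above 0 and 2 below it, with a median of 0.20 with TMM, and Acta2, the most abundant, stood at -0.013 with total counts. The summed levels of the smooth muscle markers were 19605 and 19215 FPKM, and their summed reads had a log2(fold-change) of 0.14 with TMM. The part of these markers in the CCN values was not tested.

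**Figure D4:**
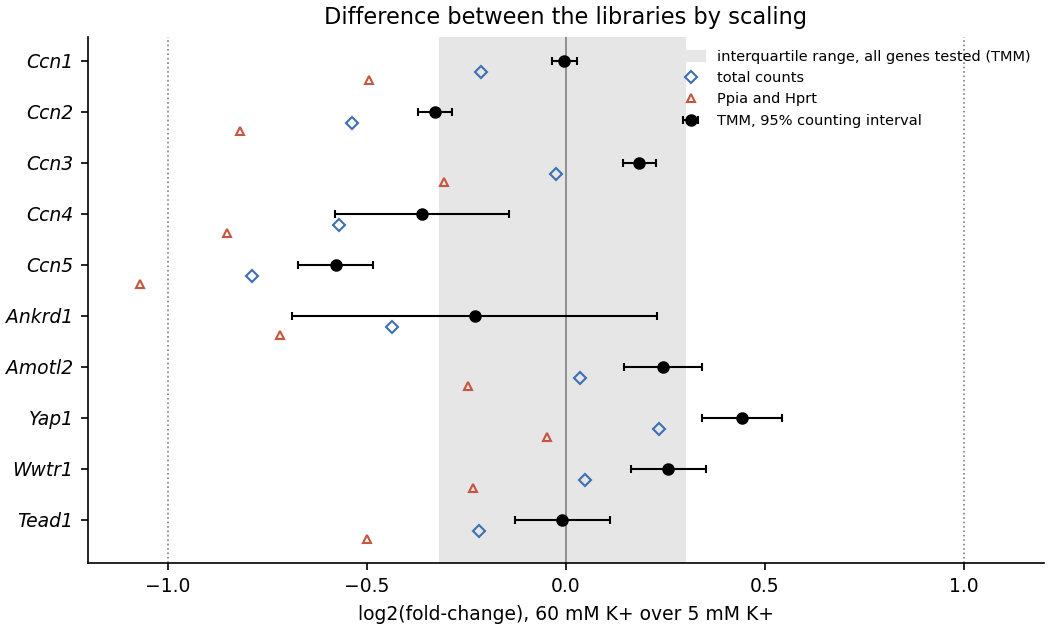
Log2(fold-change), 60 mM K+ over 5 mM K+, of the 10 genes with TMM scaling and 95% counting intervals (black circles), with total counts (blue diamonds) and with Ppia and Hprt fixed at 0 (red triangles). Grey marks the interquartile range of all tested genes and dotted lines mark -1 and 1; Yap1 is the highest with each scaling and Ccn5 the lowest, at -0.58 with TMM and -1.07 with Ppia and Hprt.

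Of the other target genes, Amotl2 (chromosome 9, 102619002 to 102635748) had 1620 control and 1788 depolarized reads, or 144 and 170.25 CPM. Its log2(fold-change) was 0.24 (0.15 to 0.34) with TMM, 0.035 with total counts and -0.25 with Ppia and Hprt. Ankrd1 (chromosome 19, 36186455 to 36194334) had 93 and 74 reads, or 8.25 and 7.05 CPM. With so few reads its log2(fold-change) of -0.23 had an interval from -0.69 to 0.23, so that a difference was not detectable at this depth. Ankrd1 stood below Amotl2 by -0.47 in log2(fold-change), with an interval of -0.94 to -0.0045 that ended next to 0. Ankrd1 is also a gene of cardiac and skeletal muscle, and of 7 markers of these tissues Myh7 and Myl2 had 0 reads in both libraries while Acta1 had 439 and 412. In the same list Actc1 fell past the thresholds, from 88 to 35 reads (-1.23), and Ckm had 21 and 36 reads (0.88), both named after their values were seen; their part in the Ankrd1 value was not tested.

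Of the coactivators, Yap1 (chromosome 9, 7931999 to 8004596) had 1444 control and 1830 depolarized reads, or 128 and 174 CPM. Its log2(fold-change) of 0.44 (0.34 to 0.54), a level 36.0% higher in 60 mM K+, was the highest of the 10 and stood at percentile 83.0 of all tested genes. It remained above 0 with total counts, at 0.23, and was -0.047 with Ppia and Hprt. Wwtr1 (chromosome 3, 57259571 to 57379832) had 1726 and 1923 reads, or 153 and 183 CPM, a log2(fold-change) of 0.26 (0.16 to 0.35) with TMM, 0.049 with total counts and -0.23 with Ppia and Hprt. Yap1 exceeded Wwtr1 in log2(fold-change) by 0.19 (0.047 to 0.32), a difference that no scaling changes. Tead1 (chromosome 7, 119822832 to 120050319) had 1194 and 1106 reads, or 106 and 105 CPM, and its log2(fold-change) of -0.0090 (-0.13 to 0.11) was next to the median of all genes, as was its -0.22 with total counts. Antisense genes overlap Yap1 (0 and 1 reads), Wwtr1 (4 and 19 reads) and Tead1 (21 and 19 reads), and no source says that reads were counted by strand.

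The other genes of the pathway were described by lists, 6 in all, in which 62 genes were found and 59 had at least 10 reads. Of these 62, 4 were up-regulated by the thresholds of the study and 1 was down-regulated, next to 2.11% and 1.10% of all 21374 genes with reads. Of those 21374 genes only 14829 had at least 10 reads, and no share at like depth was computed for the thresholds. The median log2(fold-change) of the 59 was -0.015. These calls rest on counting error: where a coefficient of variation between libraries was assumed in the exact test of edgeR, a check added after the values were seen, 3 and 1 genes were called at 0.1, without Nuak2, and 0 at 0.2 or 0.4. In a signature of 18 YAP/TEAD target genes outside the 10, 17 had at least 10 reads, with a median log2(fold-change) of 0.063. The interval lay above 0 for 6 of them and below 0 for 6. Of all genes with at least 10 reads, 25.0% lay above 0 and 20.3% below, and with at least 500 reads 41.4% and 21.4%. Crim1, the highest in FPKM summed over both libraries with 418 and 296, had 8189 and 6239 reads, at -0.29 (-0.34 to -0.24). Rbms3 had the lowest value of the signature at -0.51 (-0.69 to -0.34). Past the thresholds, Gadd45a, a stress and growth-arrest gene, rose from 74 to 182 reads, at 1.40 (1.00 to 1.81). Nuak2, a kinase of the AMPK family, rose from 18 to 49 reads, at 1.55 (0.74 to 2.41). Foxf2 had too few reads for the list, 1 and 6.

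In the list of 20 Hippo kinases and upstream regulators, all had at least 10 reads and the median log2(fold-change) was -0.054. The interval lay above 0 for 4 and below 0 for 7, next to 25.0% and 20.3% of all genes with at least 10 reads. Apart from Nuak2, which is also on this list, 0 passed the thresholds. Nf2 (merlin), which activates the Hippo kinases at the membrane, was the highest in FPKM summed over both libraries. It had 80.3 and 72.6 FPKM, with a log2(fold-change) of 0.063 (-0.053 to 0.18). Taok3, an upstream kinase, had the lowest value at -0.48 (-0.77 to -0.19), from 254 and 170 reads.

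Among the TEAD paralogs, Tead3 was the highest with 59.0 FPKM in 5 mM K+ and 55.7 FPKM in 60 mM K+, or 45.2% and 44.3% of the summed FPKM of Tead1 to Tead4. Tead1 held 35.0% and 31.3%. Tead4 rose from 32 to 89 reads, at 1.58 (0.98 to 2.21), and from 1.54% to 4.13% of the summed FPKM, so that it stayed the lowest of the 4. Vgll3, a cofactor that competes for TEAD binding, had 1176 and 777 reads, at -0.50 (-0.63 to -0.36). Vgll1 and Vgll2 had 0 reads in both libraries.

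Among 11 receptors of CCN proteins, Itgb1 was the most abundant at 1133 and 1117 FPKM, with a log2(fold-change) of 0.19 (0.16 to 0.21) with TMM and -0.021 with total counts. Sdc4, a heparan sulfate proteoglycan that acts as a co-receptor, rose from 6058 to 12091 reads, at 1.10 (1.05 to 1.14) with TMM and 0.89 with total counts. With total counts it is below the fold threshold. Itga6, a laminin receptor subunit, fell from 161 to 61 reads, at -1.30 (-1.75 to -0.87). The leukocyte integrins Itgam, with 9 and 1 reads, and Itgb2, with 12 and 4 reads, were also below -1, but did not pass the q-value; both are named after their values were seen. The median of the list was 0.086.

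SRF and its coactivators share CCN target genes with YAP, and TGF-beta is a known inducer of Ccn2. In these lists of 4 and 6 genes 0 passed the thresholds, and the medians were -0.039 and 0.051. Srf was at 0.28 (0.16 to 0.39), 0.069 with total counts, and Myocd, the smooth muscle coactivator of SRF, at -0.53 (-0.67 to -0.39). Of the TGF-beta genes, Tgfb3 was the most abundant at 227 and 220 FPKM, with 0.16 (0.12 to 0.21), and -0.045 with total counts. Tgfb1 had the highest value at 0.76 (0.63 to 0.90), from 763 and 1207 reads, and Tgfb2 the lowest at -0.32 (-0.47 to -0.17).

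**Figure D5:**
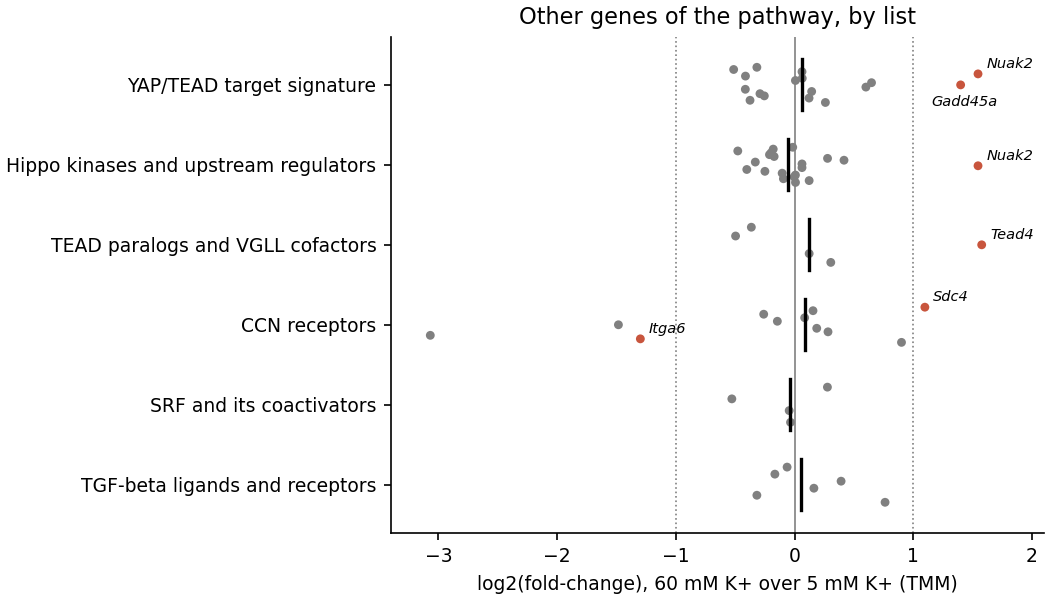
Log2(fold-change), 60 mM K+ over 5 mM K+ (x axis, TMM), of genes with at least 10 reads in 6 lists of the pathway, 1 point per gene; bars are list medians and red points passed the thresholds of the study. Medians lie between -0.054 and 0.12, and Nuak2, Gadd45a, Tead4, Sdc4 and Itga6 are the genes past the thresholds.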

How the data were processed

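RNA-seq was measured in 2 libraries of mouse mesenteric artery. Alignment by the authors was to mm9 with TopHat2, and the submitters' processing notes name TopHat2 2.0.12, HTSeq 0.6.1 and edgeR 3.0.8. The deposited counts are raw reads per gene, and the deposited FPKM values were made by the authors from the same reads, scaled by total counts. The annotation behind the counts is not given in the sources used here. Symbols and mm9 positions came from GENCODE vM1, which holds 32601 of 55573 listed genes, and older symbols were matched by hand.

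TMM factors (edgeR 4.0.16 in R 4.3.3) were 1.07 and 0.930, and a count of 0 was set to 0.5. Intervals are 95% Clopper-Pearson intervals of the share of reads in the 60 mM K+ library. A count of 0 allows up to 3 reads. DEGSeq's test was recomputed from its formula. The scripts were tested on simulated data. Other settings tried were scaling by total counts, by upper quartile or by median of ratios (from DESeq2 1.42.0), FPKM with pseudocounts of 0.1 and 1, read minimums of 10 or 50, an exact binomial test, the exact test of edgeR at an assumed coefficient of variation of 0.1, 0.2 or 0.4, and a q-value of 0.05. Scaling to Ppia and Hprt was added after the data were seen.

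The genes and lists were chosen with earlier results of these data known. Named are the 10 genes, Ppia, Hprt and, of each list, genes past the thresholds of the study, the most abundant gene and, with at least 50 reads, the highest and lowest log2(fold-change). Of marker lists, the most abundant gene and genes at 0 are named. Here the most abundant gene is that with the highest FPKM summed over both libraries. Protein sequences were not used here.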

Additional observations from a re-analysis of the deposited data

How the results depend on the processing

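No paired analysis was possible because 5 mM K+ and 60 mM K+ had 1 library each. Without replicates the spread between libraries cannot be measured. Depth limits Ankrd1, with its 167 reads, and Ccn4, with 718, more than the other 8 genes.

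Under total counts, upper quartile and median of ratios, 0 of 10 genes passed the thresholds of the study in either direction. With Ppia and Hprt, 1 gene, Ccn5, passed them downward, and 1 passed the fold of -1. The count was also 0 with both read minimums, an exact binomial test and a q-value of 0.05. So it was with the exact test of edgeR at each assumed coefficient of variation. These last settings kept the TMM values, of which none was beyond 1 in either direction, so they could not change the count. Of the genes of the 6 pathway lists, 4 were called upward and 1 downward with TMM, compared with 1 and 3 with Ppia and Hprt, 0 and 0 with an assumed coefficient of variation of 0.2 or 0.4, and 4 and 2 with a q-value of 0.05, all added after the values were seen.

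By construction, total counts lower every value by 0.21 and Ppia and Hprt lower it by 0.49. The median of the 10 genes was then -0.21 with total counts, -0.21 with FPKM and either pseudocount, and -0.50 with Ppia and Hprt. The number of genes with an interval above 0 was 1 with total counts and 0 with Ppia and Hprt, and the number below 0 was 5 and 9. No share of all genes was computed for these scalings.

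Directions reversed for Ccn3 with total counts and both FPKM settings (-0.025, -0.025 and -0.025), and with Ppia and Hprt for Ccn3 (-0.31), Amotl2 (-0.25), Yap1 (-0.047) and Wwtr1 (-0.23). List medians under total counts, FPKM with pseudocount 0.1, FPKM with pseudocount 1, and Ppia and Hprt were, in that order, as follows. They were -0.26, -0.26, -0.25 and -0.54 for Hippo regulators, and -0.085, -0.085, -0.084 and -0.37 for TEAD paralogs and VGLL cofactors. They were -0.15, -0.15, -0.14 and -0.43 for YAP/TEAD targets, and -0.12, -0.12, -0.12 and -0.40 for CCN receptors. For SRF and its coactivators they were -0.25, -0.25, -0.23 and -0.53. For TGF-beta they were -0.16, -0.16, -0.15 and -0.44. For Ppia and Hprt themselves they were 0.28, 0.28, 0.28 and 0.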

Other observations

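Markers of other cell types that the artery could hold moved as follows between the libraries, and their part in the values of the 10 genes was not tested. Of 7 endothelial markers, 6 had a counting interval above 0 and 1 below it, with a median log2(fold-change) of 0.33. Of all genes with at least 10 reads, 25.0% lay above 0 and 20.3% below, and with at least 500 reads 41.4% and 21.4%. Kdr fell past the thresholds of the study, from 168 to 73 reads (-1.10). It is named after its value was seen, as are Lyz2, Fcer1g, Plin1, Adipoq and Lep. Pecam1, the most abundant, had 19497 reads in 5 mM K+ and 25719 in 60 mM K+. Macrophage markers had a median of -0.088, with 453 and 348 summed reads, and C1qa, the highest in FPKM summed over both libraries, had 119 and 112. Lyz2, higher than C1qa in the control library, had 160 and 87 reads (-0.78), while Fcer1g went the other way with 22 and 39 (0.93). Of the macrophage intervals 1 lay above 0 and 2 below. Schwann cell markers had a median of -0.24, with Mbp at 584 and 462 reads. Red blood cell markers, of which 3 of 5 were found, had a median of -0.64, with Hba-a1 at 236 and 141 reads. Adipocyte markers had a median of -0.90 and 1405 and 1095 summed reads, most of them on Fabp4 with 1060 and 951. Plin1 fell past the thresholds from 101 to 18 reads (-2.39) and Adipoq from 97 to 44 (-1.04). Lep went the other way, with 1 and 9 reads (3.27). Of the adipocyte intervals 1 lay above 0 and 3 below. The 5 lymphocyte markers had 6 and 5 summed reads, led by Cd79a with 2 and 3.

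The mesothelial markers Msln, Upk3b and Lrrn4 had 0 reads in both libraries, and Wt1 had 4 and 4. Cardiac and skeletal muscle markers had a median of 0.0098, within a range of -1.23 for Actc1 to 0.88 for Ckm. Of 5 pancreatic markers, 4 passed the thresholds of the study upward. They were Pnlip (2 and 61 reads), Cela2a (3 and 51), Ctrb1 (21 and 129) and Prss2 (3 and 29), named after their values were seen. Cpb1, the highest in summed FPKM, did not pass, with 98 and 138 reads. The list had 127 and 408 summed reads and a median of 3.37. Fibroblast genes were led by Col1a2 with 23529 and 20172 reads.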
